A study of Oryza sativa with 12 samples.

Results

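The arsenate response of roots of the rice variety Bala was taken from 6 arrays of a 12-array series: 3 of plants grown with arsenate and 3 of plants grown without it. The members are these 6 arrays, chosen by their labels and not by a measured value, and the features are all rice probe sets of the Affymetrix Rice Genome array. The other 6 arrays hold the same treatments of the variety Azucena. Bala is known as an arsenate-tolerant and Azucena as an arsenate-sensitive parent, and the series cites a tolerance gene on chromosome 6. Both Bala groups were germinated seedlings of Oryza sativa grown for 7 days in hydroponic solution under 12 hours of light. The Bala arsenate group received 1 ppm arsenate (13.3 uM) in the solution over those days and the Bala control group 0 ppm. Each array held RNA of 100 mg of root pooled from 4 plants, so no value belongs to a single plant, and the 3 replicate numbers mark separately grown experiments that each supplied 1 array to every group. The labels name no mutation or transgene in either variety.

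Arsenate is an analogue of phosphate and enters roots through phosphate transporters. Inside the cell it is reduced to arsenite, which binds thiols, moves through silicon channels and exporters, and is detoxified by glutathione and the phytochelatins made from it. Root cells under arsenate are known for heat shock, oxidative and nutrient responses, and the comparison asks which transcripts of the tolerant variety take part after a week.

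Signals are on the deposited linear scale, on which the median of a Bala array lay between 7.3 and 10.3. Changes are log2(signal + 2.1) with arsenate minus without, given ± SE of the limma fit to all 12 arrays, with 3 arrays a group. This SE draws on the spread in both varieties and is not that of the Bala arrays alone. A gene is said to have risen or fallen where limma's adjusted p, over all 28461 probe sets tested, was under 0.05. Probe sets whose mean over the 12 arrays did not exceed 9.4 were not tested. Of the probe sets tested, 1762 (6.19%) were higher and 1617 (5.68%) lower in Bala, together 11.9%. Counted with 1 probe set a gene, 1092 (6.98%) of 15638 genes rose and 893 (5.71%) fell. These gene percentages are the background for every count of a list below, as all genes tested had a median change of 0.08. The lists were drawn by name from genes with a name other than a locus number, so a list can miss members of its family. Of 2224 such named genes tested 167 rose and 144 fell. Called changes were mostly moderate. Their median size was 1.44 log2 units and their middle 50% lay between 1.02 and 2.21. Changes below 1 unit made up 431 of the rises and 373 of the falls, while 70 rose and 17 fell by at least 5 units. Of the called probe sets 3378 had the same sign in all 3 experiments and 1 did not, against 46.7% of all tested with 1 sign throughout. Controls and arsenate arrays did not overlap in 3245 of the called probe sets and in 29.6% of all tested. Centring each array on its median instead turned the median change over all probe sets from 0.06 to -0.10 and the calls to 1198 higher and 2110 lower, so that a list median near 0 has no settled sign.

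**Figure D1:**
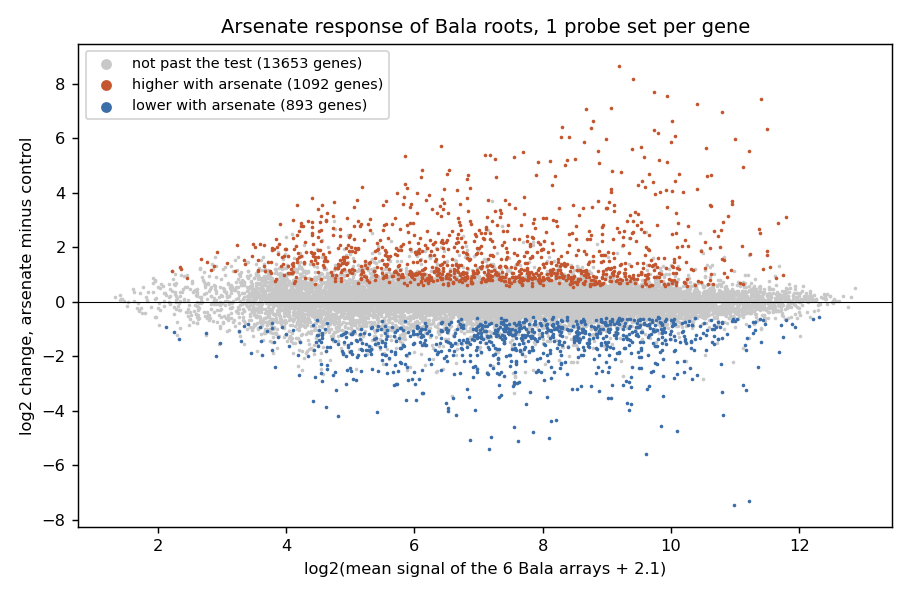
Each point is 1 of 15638 genes, with the mean signal of the 6 Bala arrays on the horizontal axis (log2 of signal plus 2.1) and the log2 change, arsenate minus control, on the vertical axis. The 1092 genes that rose (orange) and the 893 that fell (blue) are found at low and at high signals, and grey points did not pass the test.

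The arrays themselves differed in ways that touch these results. Across the tested probe sets, arrays of the same Bala group correlated with r between 0.916 and 0.969, and Bala control 3 was the array furthest from its group (0.916 and 0.926). The change in experiment 1 correlated across probe sets with that in experiment 2 at 0.67, with that in experiment 3 at 0.55, and experiments 2 and 3 at 0.47. Leaving out experiment 1, 2 or 3 left 612, 429 and 2833 called probe sets. The control probe sets for actin read a 3' to 5' signal ratio of 2.54, 3.59 and 3.66 in Bala controls and 6.82, 7.17 and 8.59 with arsenate. That of glyceraldehyde phosphate dehydrogenase was 1.85, 2.17 and 1.43 in controls and 3.66, 3.53 and 3.78 with arsenate. Both ratios were thus higher in every arsenate array, while the cyclophilin ratio overlapped (1.88 to 2.44 in controls, 2.08 to 2.90 with arsenate). Their part in any change below was not tested. The 13 listed root markers, several of them transport and iron genes of lists below, all passed the filter. Their summed signal was 15744 to 21735 in controls and 16502 to 19043 with arsenate. Their mean log2 signal was lower in every arsenate array (8.0, 7.73 and 8.0) than in every control (8.43, 8.25 and 8.41), and 2 of them rose and 5 fell. The 21 tested photosynthesis genes, which mark green shoot tissue, summed to 2350, 5880 and 6907 in controls and to 1330, 1028 and 6348 with arsenate. Bala arsenate 3 thus lay within the range of the controls for these genes, and the other arsenate arrays read lower. In whole-root RNA, fewer cells of a type and less RNA per cell cannot be told apart.

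More transcripts of heat shock proteins and chaperones rose than fell. Heat shock proteins bind unfolding proteins, and heat shock factors switch on their genes. Of 50 tested genes of heat shock and chaperones 19 rose and 2 fell (median change 0.69). This list had 20 higher and 1 lower calls without experiment 3. With the Bala arrays alone it had 15 and 0, so that neither fall passed there. The role counts were uneven: 11 of 19 small heat shock proteins, 2 of 6 HSP90 and HSP100 chaperones and 6 of 20 heat shock factors rose. OsHsp18.1, a cytosolic small heat shock protein, read 37.1, 80.6 and 5.3 in controls and 5716, 7562 and 2887 with arsenate (log2 change 7.44 ± 0.59, adjusted p 0.000235). All arsenate arrays were bright and no control array came near them. OsHsp17.9A and the HSP90 genes were bright in both groups. OsHsp17.9A read 2742, 3167 and 2525 in controls and 4707, 5598 and 3293.5 with arsenate and did not pass (adjusted p 0.14), and HSP81-3 read 6512, 6229 and 4692 in controls and 6281, 6098 and 5334 with arsenate (log2 change 0.03 ± 0.16, adjusted p 0.915). Among the factors, HSFA2C read 36.8, 38.6 and 23.9 in controls and 204, 340.3 and 174 with arsenate (log2 change 2.74 ± 0.38) and HSFA3 5.5, 12.4 and 13 in controls and 133, 154 and 66.4 with arsenate (log2 change 3.25 ± 0.43). HSFA2D was already bright without arsenate (1077, 1236 and 1746 in controls and 4724, 4971 and 3480.4 with arsenate) and rose by 1.71 ± 0.26. The disaggregases CLPB-C and CLPB-M rose by 1.42 ± 0.25 and 1.62 ± 0.36. Against this direction, the small heat shock protein OsHsp18.8 read 2169, 1713 and 2007 in controls and 752.5, 511 and 1224 with arsenate (log2 change -1.33 ± 0.23), and the J-domain co-chaperone OsDjA6 fell by 0.77 ± 0.20. CLPB-M did not pass without Bala arsenate 2 or 3 or Bala control 1, each left out alone (adjusted p up to 0.0768). The call of OsDjA6 was lost for 9 of the 12 arrays left out singly (adjusted p up to 0.14). No member of the 15 genes of protein folding in the endoplasmic reticulum passed: BIP1, the main chaperone of that compartment, had a change of 0.13 ± 0.17 (adjusted p 0.668) and the disulfide isomerase OsPDIL1-1 one of 0.25 ± 0.16 (adjusted p 0.356).

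Some of the heat shock genes that rose lie side by side on chromosomes. OsHsp16.9A and OsHsp16.9B are direct neighbours on chromosome 1 among protein-coding genes of the reference annotation, and rose by 5.09 ± 0.69 and 7.09 ± 0.53. In the same stretch OsHsp16.6 and OsHsp17.9B, neighbours of each other and the latter 1 gene away from OsHsp16.9A, did not pass (2.43 ± 0.73 and 0.34 ± 0.22, adjusted p 0.0646 and 0.34). OsHsp17.4, OsHsp18.1 and HSP17.7 follow one another on chromosome 3, with changes of 5.86 ± 0.44, 7.44 ± 0.59 and 2.03 ± 0.44. HSP17.7 did not pass without Bala arsenate 1 or 2 or Bala control 2, each left out alone (adjusted p up to 0.0915). Neighbours of one family can be so alike that a probe set reads more than 1 of them, and how far they did so was not tested. The same limit holds for the neighbours of other families below, among them the RAB16, OsNAS and OsOPR genes. Of 422 genes picked by the naming rule, 57 were read from a probe set that can match several transcripts.

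Dehydrins and other late embryogenesis abundant (LEA) proteins are hydrophilic proteins known from drying seeds and dry leaves. Of 8 tested, 7 rose and 1 fell, with a median change of 4.47. RAB21 read 9.0, 1.0 and 0.5 in controls and 1133.5, 1884 and 1021 with arsenate (log2 change 8.18 ± 0.58, adjusted p 0.000164). All controls lay at or under 9.0 and all arsenate arrays far above, so that the size depends on the constant added. EM, an LEA protein of embryos, read 11.1, 26.8 and 7.0 in controls and 712, 975 and 242 with arsenate (log2 change 5.19 ± 0.63). OsPM19L1 read 65.3, 82.7 and 73.2 in controls and 1566, 2065 and 1185 with arsenate (log2 change 4.38 ± 0.44). RAB16D, RAB16C, RAB16B and RAB21 are 4 consecutive protein-coding genes on chromosome 11, and rose by 5.29 ± 0.53, 3.50 ± 0.94, 4.56 ± 0.59 and 8.18 ± 0.58. LEA19 rose by 2.94 ± 0.40. The exception was OsDhn1, a dehydrin that was bright in controls and fell in every experiment: it read 2003, 2346 and 1273 in controls and 703, 735 and 546 with arsenate (log2 change -1.47 ± 0.20, adjusted p 0.00273). The call of RAB16C was lost for 8 of the 12 arrays left out singly (adjusted p up to 0.152). Many of these proteins are known targets of the drought hormone abscisic acid. No tested gene of its synthesis, receptors, kinases, phosphatases or transcription factors in the list rose. Without experiment 3, the 17 receptor, phosphatase and kinase genes had 1 higher and 0 lower calls, and with the Bala arrays alone 0 and 1. The 2 breakdown genes had 1 higher and 1 lower calls without experiment 3, and 0 and 0 with the Bala arrays alone. The kinases OsSAPK3 and OsSAPK4 fell by 1.41 ± 0.29 and 0.94 ± 0.25, and the breakdown gene OsABA8ox1 by 1.43 ± 0.36. The factor OsABF2 had a change of 0.13 ± 0.23 (adjusted p 0.765). OsSAPK3 did not pass without Bala arsenate 3 or Bala control 1, each left out alone (adjusted p up to 0.069). OsABA8ox1 did not pass without Bala arsenate 1 or 2 or Bala control 1, 2 or 3 or Azucena arsenate 2 or Azucena control 2, each left out alone (adjusted p up to 0.149). The call of OsSAPK4 was lost for 10 of the 12 arrays left out singly (adjusted p up to 0.145).

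**Figure D2:**
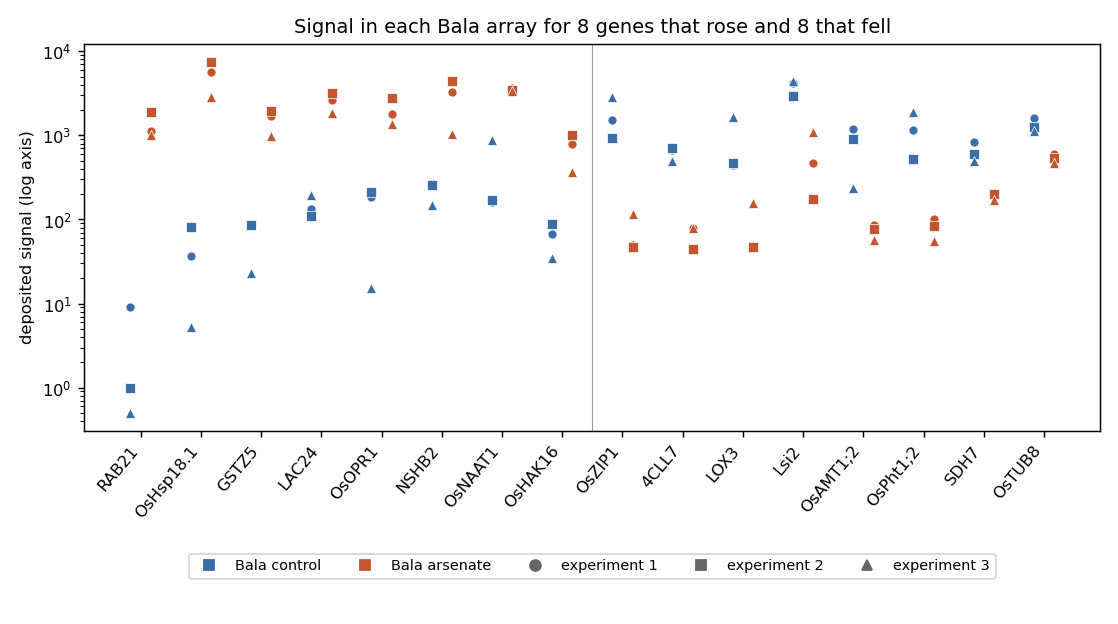
Deposited signal in each Bala array (vertical log axis) for 16 genes, controls in blue and arsenate in orange, with 1 symbol per experiment. For the 8 genes on the left every arsenate array lies above every control, and for the 8 on the right below. The genes were picked for display after their values were seen.

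Iron uptake in grasses runs through phytosiderophores, metal binders made from nicotianamine, and through IRT transporters. Of 14 genes of iron acquisition 9 rose and 1 fell (median 2.76). This list had 9 higher and 1 lower calls without experiment 3, and 7 and 1 with the Bala arrays alone. The gene that fell was osysl16, of the uptake transporters, and its call was kept without any single array or experiment. Of 6 genes of phytosiderophore synthesis and export 5 rose, with 4 higher without experiment 3 and 3 with the Bala arrays alone. OsNAAT1, the aminotransferase that follows nicotianamine, read 163, 169 and 894 in controls and 3685, 3465 and 3412 with arsenate (log2 change 3.59 ± 0.64, adjusted p 0.00927). The nicotianamine synthase gene OsNAS1 read 447, 235 and 2930.1 in controls and 5897, 6104 and 5688 with arsenate, with OsNAS2 beside it on chromosome 3 at 582, 378 and 1537 in controls and 4218, 4568 and 4541 with arsenate. In both the arsenate arrays stood close together while Bala control 3 lay well above the other controls. The same control was high for the uptake gene OsIRT1 (7.2, 3.7 and 130.5 in controls and 301.5, 346 and 943 with arsenate) and for osysl15, a transporter of iron phytosiderophores (46.1, 35.9 and 1580.0 in controls and 789, 514 and 927 with arsenate). The groups of osysl15 overlapped through that array, and the gene did not pass (adjusted p 0.112). The regulator IRO3, which the annotation also names OsIRO2, rose by 4.28 ± 0.44, and OsIDI2, of the methionine cycle that feeds the pathway, by 2.86 ± 0.22. The phytosiderophore exporter tom1 did not pass (-0.28 ± 0.17, adjusted p 0.308), nor did the regulator IDEF1 (-0.31 ± 0.36, adjusted p 0.62). OsNAS1 did not pass without Bala arsenate 1 or 2 or Bala control 1 or 2, each left out alone (adjusted p up to 0.105). OsNAS3 did not pass without Bala arsenate 1 or 3 or Bala control 1 or 3, each left out alone (adjusted p up to 0.0716). Both directions were also seen in 1 pair of neighbours on chromosome 4: OsYSL13 rose by 1.93 ± 0.44 and osysl12, of the same yellow stripe-like family, read 1659.6, 1127 and 2217 in controls and 427, 490.1 and 485 with arsenate (log2 change -1.78 ± 0.24). OsYSL13 did not pass without Bala arsenate 1 or 2 or Bala control 1 or 2, each left out alone (adjusted p up to 0.0974).

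Other metal transporters fell more often than they rose. Of 46 tested, 6 rose and 11 fell (median 0.04). Metal transport had 5 higher and 10 lower calls without experiment 3, and 3 and 6 with the Bala arrays alone. OsZIP1, of the zinc and iron transporter family, read 1505, 938 and 2825.5 in controls and 49.6, 46.5 and 118 with arsenate (log2 change -4.57 ± 0.33, adjusted p 0.000179). OsNramp5, the root entry route of manganese and cadmium, read 1314, 894 and 2017 in controls and 309, 156 and 438 with arsenate (log2 change -2.26 ± 0.21). OsVIT1.2, of the vacuolar iron transporters, fell by 3.12 ± 0.37, OsMGT1, of the magnesium transporters, by 1.75 ± 0.24, and OsZIP7 by 1.81 ± 0.26. In the same families OsZIP3 read 0.2, 4.8 and 0.2 in controls and 75.8, 98 and 27.6 with arsenate (log2 change 4.21 ± 0.69), and OsZIP4 rose by 1.57 ± 0.23. Copper transporters split: OsCOPT5.1 read 333, 278 and 354 in controls and 791.5, 828 and 721 with arsenate (log2 change 1.28 ± 0.18), while OsCOPT1 and OsCOPT2 fell by 1.32 ± 0.36 and 3.35 ± 0.93. The fall of OsMTP5, a cation diffusion facilitator, was small at 0.62 ± 0.17. OsCOPT1, OsCOPT2 and OsMTP5, with arrays left out singly, lost the call for 9, 9 and 11 of the 12 arrays (adjusted p up to 0.164, 0.185 and 0.166). Metallothioneins are small cysteine-rich metal binders. Of 7 tested MT1B alone passed, reading 5879.8, 5036 and 4054 in controls and 1624, 2312 and 685 with arsenate (log2 change -1.85 ± 0.50), while OsMT1c read 6847, 7211 and 4789.7 in controls and 8561, 9299 and 8259.7 with arsenate and did not pass (adjusted p 0.135). The call of MT1B was lost for 10 of the 12 arrays left out singly (adjusted p up to 0.157).

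More genes of the nutrient and water lists fell than rose. The phosphate and nitrogen lists also hold genes that are not transporters, such as regulators and assimilation enzymes. Of 8 phosphate transporters 1 fell and 0 rose, and of 11 ammonium and nitrate transporters 2 fell and 0 rose. The 4 nutrient lists were phosphate (21 tested, 1 rose, 4 fell), nitrogen (23, 1 and 4), potassium and sodium (24, 2 and 4) and aquaporins (21, 0 and 4). With the Bala arrays alone the lower counts of these lists were 1, 2, 2 and 1. Without experiment 3 they were 3, 4, 6 and 4. OsPht1;2, a root phosphate transporter, read 1174, 518 and 1877 in controls and 100.6, 83.1 and 55.9 with arsenate (log2 change -3.72 ± 0.43). LPR1 and LPR4 are multicopper oxidases named after root growth under low phosphate in Arabidopsis, with 2 protein-coding genes between them on chromosome 1. They moved in opposite directions: LPR1 read 132.5, 87 and 72.7 in controls and 1716, 2375 and 789.8 with arsenate (log2 change 3.94 ± 0.54, adjusted p 0.00287) and LPR4 153.5, 66.6 and 46.9 in controls and 5.2, 29.9 and 2.1 with arsenate (log2 change -3.02 ± 0.69). The phosphate exporter OsPHO1;2 had a change of -0.06 ± 0.25 (adjusted p 0.894). OsAMT1;2, an ammonium uptake transporter of roots, read 1200.5, 917 and 236 in controls and 86.4, 77.7 and 57.5 with arsenate (log2 change -3.10 ± 0.50), with all arsenate arrays below the lowest control. OsAMT2;2 fell by 1.5 ± 0.22 and its neighbour OsAMT2;3 was not called. In nitrogen assimilation the cytosolic glutamine synthetase OsGLN1;2 fell by 1.04 ± 0.29 and ferredoxin glutamate synthase, Fd-GOGAT, rose by 0.80 ± 0.22. OsAKT1, the inward potassium channel of roots, read 644, 445 and 801 in controls and 223, 229 and 151 with arsenate (log2 change -1.62 ± 0.28) and OsHAK10 fell by 1.33 ± 0.21, whereas OsHAK16 read 66.6, 87.6 and 35 in controls and 801, 1003 and 366 with arsenate (log2 change 3.45 ± 0.65). OsHAK5, a bright high-affinity potassium transporter, did not pass (0.40 ± 0.16, adjusted p 0.147). LPR4 did not pass without Bala arsenate 1 or 3 or Bala control 1 or 2, each left out alone (adjusted p up to 0.108). OsHAK16 did not pass without Bala arsenate 1 (adjusted p 0.0528). OsGLN1;2 and Fd-GOGAT, with arrays left out singly, lost the call for 10 and 10 of the 12 arrays (adjusted p up to 0.166 and 0.169). Of the water channels, OsTIP4;1 of the vacuole read 575, 467 and 849 in controls and 201, 239 and 292 with arsenate (log2 change -1.33 ± 0.20) and OsTIP1;2 fell by 1.49 ± 0.28. The bright plasma membrane channels OsPIP2;2 and OsPIP2;4 fell by less, 0.63 ± 0.16 and 0.88 ± 0.22. OsPIP1;3 had a change of 0.04 ± 0.18 (adjusted p 0.915). OsPIP2;2 and OsPIP2;4, with arrays left out singly, lost the call for 10 and 9 of the 12 arrays (adjusted p up to 0.141 and 0.12). Lsi2, the silicon exporter that also carries arsenite, read 4211, 2908 and 4500.3 in controls and 467, 178 and 1087 with arsenate (log2 change -3.08 ± 0.43), and the paired channel Lsi1 read 6062.5, 5439 and 5271 in controls and 2443, 1174 and 4348 with arsenate but did not pass (adjusted p 0.0608). The arsenate reductases OsACR2.1 and OsACR2.2 had changes of -0.33 ± 0.18 and -0.03 ± 0.15 (adjusted p 0.262 and 0.906).

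Of 14 sulfur and glutathione genes 7 rose and none fell (median 0.71). This list had 5 higher and 0 lower calls without experiment 3, and 4 and 0 with the Bala arrays alone. They spanned the route from serine to glutathione: SAT4, a serine acetyltransferase, read 109, 98.7 and 22.5 in controls and 519, 536 and 471 with arsenate (log2 change 2.97 ± 0.40), rcs1, a cysteine synthase, read 873, 436 and 803 in controls and 2978.5, 3392 and 1969.6 with arsenate (log2 change 2.01 ± 0.35), and gcs, the first enzyme of glutathione synthesis, read 608.5, 545 and 811.5 in controls and 1419, 1509.6 and 1672 with arsenate (log2 change 1.24 ± 0.17). All arsenate arrays exceeded all controls in these 3 genes. GR, glutathione reductase, rose by 0.77 ± 0.21 and SAT5 by 1.02 ± 0.20. In methionine recycling OsMTK1, a methylthioribose kinase, rose by 1.15 ± 0.17. The S-adenosylmethionine synthetase genes did not pass: SAM1 had a change of 0.02 ± 0.17 (adjusted p 0.95) and SAM2 of 0.61 ± 0.17 (adjusted p 0.051). SAT5 did not pass without Bala arsenate 2 or Bala control 2, each left out alone (adjusted p up to 0.0579). The call of GR was lost for 10 of the 12 arrays left out singly (adjusted p up to 0.154). Glutathione S-transferases join glutathione to reactive compounds. Of the 6 listed, which are not the whole family, 3 rose. GSTU6 read 1682, 1003 and 247 in controls and 5413, 6534 and 4693 with arsenate (log2 change 2.87 ± 0.55), GSTZ5 87.2, 86.8 and 23.3 in controls and 1689, 1963.5 and 986.5 with arsenate (log2 change 4.66 ± 0.46) and GST1 rose by 2.77 ± 0.36. GST-II read 5460.4, 5064.5 and 4104 in controls and 5332, 5685 and 5266 with arsenate and did not pass (adjusted p 0.548). GSTU6 did not pass without Bala arsenate 2 (adjusted p 0.0523).

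Few enzymes that remove reactive oxygen passed. Of 34 antioxidant genes 2 rose and 3 fell (median 0.01), shares close to the background. Antioxidant genes had 1 higher and 2 lower calls without experiment 3, and 1 and 1 with the Bala arrays alone. None of the 6 catalases and superoxide dismutases passed: cuznsod1 had a change of -0.13 ± 0.16 (adjusted p 0.647). Besides glutathione reductase, described above, R1C-Prx, a one-cysteine peroxiredoxin, rose, reading 28.4, 17.3 and 3.7 in controls and 246, 479.7 and 63 with arsenate (log2 change 3.72 ± 0.39). OsAPx01, a cytosolic ascorbate peroxidase, fell by 0.68 ± 0.15, OsMSRB5 by 0.67 ± 0.19, and the class III peroxidase PRX112 read 653, 358 and 437 in controls and 50.2, 45.9 and 120.4 with arsenate (log2 change -2.80 ± 0.32). OsAPx01 did not pass without Bala arsenate 1, 2 or 3 or Bala control 1 or 2, each left out alone (adjusted p up to 0.103). The call of OsMSRB5 was lost for 10 of the 12 arrays left out singly (adjusted p up to 0.152). Of 36 thioredoxins, nucleoredoxins and glutaredoxins 4 rose and none fell. These genes had 1 higher and 1 lower calls without experiment 3, and 1 and 0 with the Bala arrays alone. GRXS3, a glutaredoxin, read 23.3, 22 and 19.3 in controls and 88.7, 154 and 80 with arsenate (log2 change 2.16 ± 0.22, adjusted p 0.000851). Of the other risers, GRXC3 rose by 0.79 ± 0.20, GRXS7 by 0.84 ± 0.21 and the nucleoredoxin OsNrx2 by 1.72 ± 0.42. OsNrx2 did not pass without Bala arsenate 1, 2 or 3 or Bala control 1, 2 or 3, each left out alone (adjusted p up to 0.107). GRXC3 and GRXS7, with arrays left out singly, lost the call for 10 and 8 of the 12 arrays (adjusted p up to 0.114 and 0.108). None of 14 thioredoxins passed.

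In respiration, the alternative oxidase lets electrons bypass part of the chain, and non-symbiotic haemoglobins scavenge nitric oxide. NSHB2 read 262, 254 and 151 in controls and 3314, 4469 and 1037 with arsenate (log2 change 3.51 ± 0.46, adjusted p 0.00258), and all arsenate arrays stood above all controls. OsAOX1A rose by 1.81 ± 0.46. Of 8 succinate dehydrogenase genes, SDH7 read 843, 597 and 492 in controls and 209, 201 and 172 with arsenate (log2 change -1.69 ± 0.18), with no overlap, and Ip fell by 0.86 ± 0.19. No fermentation gene passed among 6, and alcohol dehydrogenase Adh2 had a change of -0.34 ± 0.19 (adjusted p 0.288). Ip did not pass without Bala arsenate 1, 2 or 3 or Bala control 1 or 2, each left out alone (adjusted p up to 0.11). The call of OsAOX1A was lost for 9 of the 12 arrays left out singly (adjusted p up to 0.125). In sugar metabolism, 5 of 47 genes rose and 3 fell. Sugar genes had 8 higher and 4 lower calls without experiment 3, and 4 and 2 with the Bala arrays alone. RAmy3D, an alpha-amylase known to be induced when sugars run short, read 5.0, 0.7 and 3.4 in controls and 267.5, 475 and 59 with arsenate (log2 change 5.38 ± 0.86), and the sucrose synthase OsSUS3 12.2, 10.2 and 5.4 in controls and 96.4, 84 and 91.5 with arsenate (log2 change 3.08 ± 0.52). The bright sucrose synthases OsSUS1 and OsSUS2 did not pass (-0.35 ± 0.18 and -0.47 ± 0.16, adjusted p 0.242 and 0.102). Among SWEET transporters, which move sugars across membranes, OsSWEET2a read 1198, 801 and 1365 in controls and 189, 287 and 159 with arsenate (log2 change -2.40 ± 0.30), OsSWEET4 fell by 1.26 ± 0.18 and OsSWEET1b rose by 5.35 ± 0.18. The trehalose 6-phosphate phosphatases OsTPP3 and OsTPP4 moved apart, with changes of 2.08 ± 0.44 and -1.35 ± 0.24. The neutral invertase OsNIN1 rose by 0.89 ± 0.20. OsTPP3 did not pass without Bala arsenate 1, 2 or 3, each left out alone (adjusted p up to 0.0733). OsNIN1 did not pass without Bala arsenate 1 or 2 or Bala control 1 or 2, each left out alone (adjusted p up to 0.0788). Proline and polyamine genes held 2 risers of 8: the proline synthesis gene OsP5CS2 read 0.9, 1.5 and 6.6 in controls and 31.4, 30.1 and 38.9 with arsenate (log2 change 2.96 ± 0.35) and ornithine aminotransferase, OAT, rose by 1.04 ± 0.17.

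**Figure D3:**
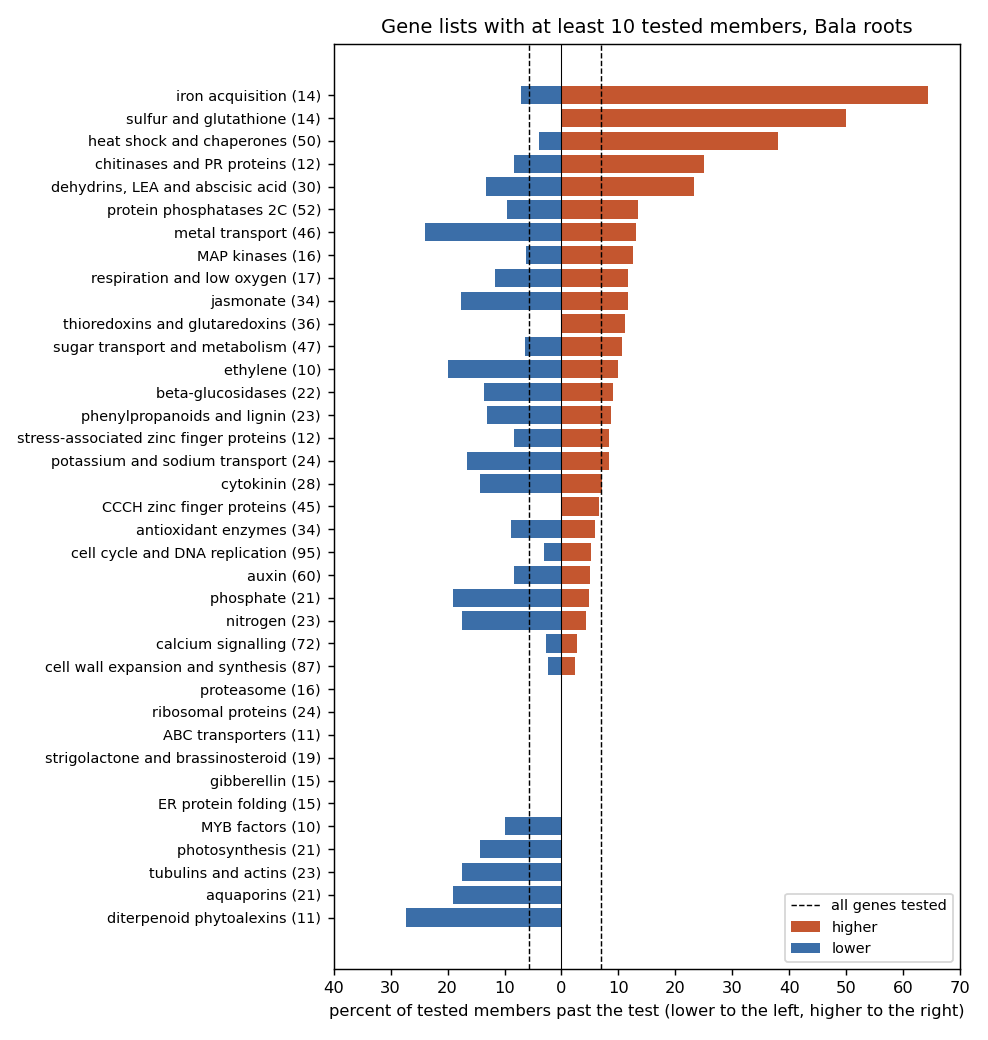
Percent of tested members that rose (orange, right) or fell (blue, left) in Bala for gene lists with at least 10 tested members, the number tested in parentheses, with dashed lines at the shares of all genes tested (6.98% and 5.71%). Iron acquisition, with 9 of 14 higher, stands at the top, and diterpenoid phytoalexins, with 3 of 11 lower, at the bottom.

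Jasmonate is made from fatty acids by lipoxygenases, allene oxide synthase and cyclase and 12-oxophytodienoate reductases (OPR), and its receptor removes repressor proteins of the TIFY family. Of 34 jasmonate genes 4 rose and 6 fell (median -0.50). The genes that fell were lipoxygenases, allene oxide synthases and the factor OsJAMyb, and those that rose were reductases of the OPR family. Jasmonate genes had 4 higher and 10 lower calls without experiment 3, and 3 and 8 with the Bala arrays alone. After centring, 4 rose and 9 fell. Among the early steps the lipoxygenase gene LOX3 read 445, 469 and 1642.5 in controls and 48.2, 47.1 and 155 with arsenate (log2 change -3.26 ± 0.40, adjusted p 0.00183). CM-LOX1 and LOX1.1 fell by 2.70 ± 0.49 and 1.51 ± 0.40, and the allene oxide synthases AOS1 and AOS4 by 1.95 ± 0.30 and 2.59 ± 0.64. The lipoxygenases CM-LOX2, beside CM-LOX1 on chromosome 8, and LOX5 did not pass (0.22 ± 0.61 and 0.04 ± 0.28). Allene oxide cyclase, OsAOC, had a change of -0.31 ± 0.20 (adjusted p 0.349). The risers were 4 reductase genes. OsOPR1 read 185, 213 and 15.3 in controls and 1819.7, 2818 and 1364 with arsenate (log2 change 4.43 ± 0.64, adjusted p 0.00371), where control 3 was lower than the other controls and no arsenate array reached down to them. OsOPR6, OsOPR5 and OsOPR4 are 3 consecutive protein-coding genes on chromosome 6, with 1 gene between OsOPR4 and OsOPR1. They rose by 6.02 ± 1.2, 2.63 ± 0.58 and 3.20 ± 0.67. Several reductases of this kind act on other substrates than the jasmonate precursor, so the list name does not describe all of them. None of 16 receptor and repressor genes passed, but 3 were lower without experiment 3, and 2 with the Bala arrays alone and after centring. The repressor OsTIFY3 read 4568, 4823 and 2675 in controls and 2868, 2308 and 3081 with arsenate (log2 change -0.51 ± 0.24, adjusted p 0.204). OsJAMyb, a jasmonate-inducible MYB factor, read 97.7, 100.2 and 41 in controls and 4.9, 16.7 and 12.5 with arsenate (log2 change -2.61 ± 0.38). OsOPR6 did not pass without Bala arsenate 1 or 2 or Bala control 2, each left out alone (adjusted p up to 0.0705). OsOPR5 did not pass without Bala arsenate 1 or 2 or Bala control 2 or 3, each left out alone (adjusted p up to 0.0871). OsOPR4 did not pass without Bala arsenate 1, 2 or 3, each left out alone (adjusted p up to 0.0645). LOX1.1 and AOS4, with arrays left out singly, lost the call for 8 and 9 of the 12 arrays (adjusted p up to 0.157 and 0.128).

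**Figure D4:**
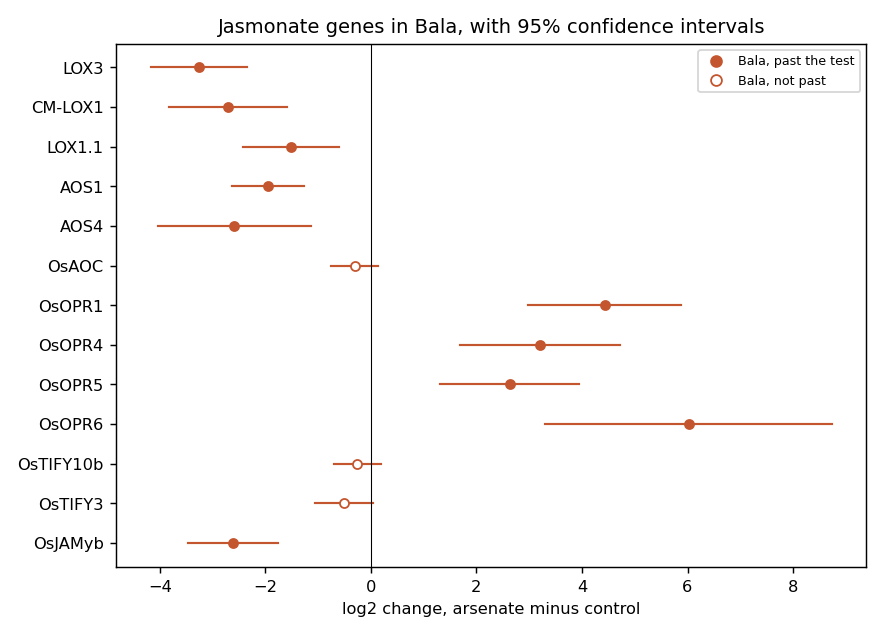
Log2 change in Bala, arsenate minus control, with 95% confidence intervals, for 13 genes of the jasmonate list, which are the 10 that passed and 3 that did not. They are ordered as lipoxygenases, allene oxide synthases and cyclase, OPR reductases, repressors and OsJAMyb. The lipoxygenases and allene oxide synthases shown lie below 0 and the 4 reductases above it, and open symbols did not pass the test.

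For auxin, 3 of 60 genes rose and 5 fell, near the background. Auxin genes had 1 higher and 4 lower calls without experiment 3, and 0 and 2 with the Bala arrays alone. The repressor IAA6 read 571, 599.9 and 475 in controls and 229, 214 and 192 with arsenate (log2 change -1.36 ± 0.16, adjusted p 0.00167), and IAA23 rose by 1.12 ± 0.21. ILL6, which by its name releases auxin from amino acid conjugates, fell by 2.22 ± 0.38, and OsYUCCA1, an auxin synthesis gene, by 1.45 ± 0.39. For cytokinin, 2 of 28 rose and 4 fell, all in activation and breakdown. Cytokinin genes had 1 higher and 0 lower calls without experiment 3, and 2 and 0 with the Bala arrays alone. LOG, the cytokinin-activating enzyme, read 117, 82.1 and 59.5 in controls and 379.8, 439 and 253.5 with arsenate (log2 change 2.04 ± 0.30). Its relative LOGL9 rose by 1.86 ± 0.36, while LOGL1 and LOGL7 fell by 0.79 ± 0.18 and 1.04 ± 0.26. The cytokinin oxidases OsCKX3 and OsCKX4 fell by 0.93 ± 0.18 and 1.36 ± 0.36. LOGL9 did not pass without Bala arsenate 1 or Bala control 1, each left out alone (adjusted p up to 0.0692). LOGL1 did not pass without Bala arsenate 1 or 3 or Bala control 1 or 3, each left out alone (adjusted p up to 0.113). OsCKX3 did not pass without Bala arsenate 1 or 2 or Bala control 2, each left out alone (adjusted p up to 0.0648). OsYUCCA1, LOGL7 and OsCKX4, with arrays left out singly, lost the call for 10, 8 and 8 of the 12 arrays (adjusted p up to 0.132, 0.123 and 0.168). Of 10 ethylene genes 1 rose and 2 fell. Ethylene genes had 0 higher and 1 lower calls without experiment 3, and 0 and 0 with the Bala arrays alone. The receptors OsETR3 and OsETR2 fell by 1.06 ± 0.19 and 0.86 ± 0.22, and the signalling gene OsEIL1b read 157, 77.5 and 29.7 in controls and 342, 340.3 and 335 with arsenate (log2 change 2.21 ± 0.45). Its neighbour OsEIL1a had a change of -0.40 ± 0.16 (adjusted p 0.153). OsETR3 did not pass without Bala arsenate 1 (adjusted p 0.0546). OsEIL1b did not pass without Bala arsenate 1 or 3 or Bala control 2, each left out alone (adjusted p up to 0.0593). The call of OsETR2 was lost for 9 of the 12 arrays left out singly (adjusted p up to 0.115). No gene passed among 15 of gibberellin and 19 of strigolactone and brassinosteroid, although 1 of the first was higher with the Bala arrays alone and 2 of the second were lower without experiment 3.

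Defence lists held calls in both directions. Of 11 diterpenoid phytoalexin genes, which make antifungal diterpenes, none rose and 3 fell (median -1.21). Phytoalexin genes had 0 higher and 5 lower calls without experiment 3, and 0 and 4 with the Bala arrays alone. OsKO4 read 125, 278 and 43.1 in controls and 18.2, 17.9 and 19.7 with arsenate (log2 change -2.50 ± 0.59). CYP99A2 and KSL4, consecutive genes of the momilactone cluster on chromosome 4, read 192, 393 and 125 in controls and 20.6, 76.5 and 20.8 with arsenate (log2 change -2.63 ± 0.57) and 23.8, 59.4 and 8.3 in controls and 1.5, 3.4 and 0.9 with arsenate (log2 change -2.71 ± 0.68). OsKO4 did not pass without Bala arsenate 1, 2 or 3 or Bala control 1 or 2, each left out alone (adjusted p up to 0.108). CYP99A2 did not pass without Bala arsenate 1 or 3 or Bala control 1 or 2, each left out alone (adjusted p up to 0.0917). KSL4 did not pass without Bala arsenate 1, 2 or 3 or Bala control 1 or 2 or Azucena arsenate 2, each left out alone (adjusted p up to 0.117). PBZ1, a PR10 protein of probenazole-treated rice, read 3224.5, 3562 and 752 in controls and 190.3, 165 and 726 with arsenate and did not pass (log2 change -2.85 ± 0.99, adjusted p 0.0989), as its arsenate arrays were far below the controls in experiments 1 and 2 and close to the control in experiment 3. Chitinases, which cut fungal cell walls, moved both ways. OsChia2a read 161, 144 and 86.3 in controls and 606, 591 and 446.5 with arsenate (log2 change 2.09 ± 0.31) and Chib3H-h rose by 1.96 ± 0.36 and Cht11 by 1.38 ± 0.36, while Cht10 read 1438, 1419 and 1061 in controls and 443, 364 and 437 with arsenate (log2 change -1.64 ± 0.21). Of 6 listed WRKY factors, which are not the whole family, none passed, and 1 was lower without experiment 3. Of 8 germins 1 rose and 1 fell. OsGER7 fell, a call lost for each of the 6 Bala arrays left out singly and for 4 of the Azucena arrays. OsGER6 on chromosome 8 rose, reading 327, 217 and 417.5 in controls and 1993, 2109 and 1385 with arsenate (log2 change 2.53 ± 0.53). OsGER1, with 2 genes between them, read 3327, 2123 and 4227 in controls and 773, 1187.5 and 326 with arsenate and did not pass (log2 change -2.21 ± 0.68, adjusted p 0.068). Chib3H-h did not pass without Bala arsenate 1 (adjusted p 0.0554). OsGER6 did not pass without Bala arsenate 1 or 2 or Bala control 2 or 3, each left out alone (adjusted p up to 0.0855). The call of Cht11 was lost for 9 of the 12 arrays left out singly (adjusted p up to 0.129). In phenylpropanoid metabolism, which leads to lignin, 2 of 23 genes rose, both laccases, and 3 fell. Phenylpropanoid genes had 2 higher and 3 lower calls without experiment 3, and 3 and 1 with the Bala arrays alone. LAC24 read 133, 110.2 and 194 in controls and 2608, 3206 and 1863 with arsenate (log2 change 4.12 ± 0.44, adjusted p 0.00101) and LAC19 0.6, 3.9 and 3.8 in controls and 176, 115 and 104 with arsenate (log2 change 4.83 ± 0.48). The 4-coumarate ligase gene 4CL read 727, 400.0 and 719 in controls and 164.5, 138 and 157 with arsenate (log2 change -1.94 ± 0.19). The other listed genes that fell were Cfi, by 1.26 ± 0.28, and OsCAD1, a cinnamyl alcohol dehydrogenase gene, by 0.74 ± 0.19. Cfi did not pass without Bala arsenate 1 or 3 or Bala control 1 or 3, each left out alone (adjusted p up to 0.0929). The call of OsCAD1 was lost for 10 of the 12 arrays left out singly (adjusted p up to 0.124). Outside the list, the ligase-like 4CLL7 read 669.5, 717 and 496 in controls and 80.2, 44.4 and 79.9 with arsenate (log2 change -3.19 ± 0.30). PAL, the entry enzyme, read 4359, 4169.9 and 3828 in controls and 4225, 4394 and 4042 with arsenate and did not pass (adjusted p 0.908). Of 22 beta-glucosidases, which free sugars from conjugates, 2 rose and 3 fell. Glucosidase genes had 3 higher and 1 lower calls without experiment 3, and 2 and 1 with the Bala arrays alone. BGLU31 read 701, 857 and 402 in controls and 2444, 3079.5 and 1874.5 with arsenate (log2 change 1.95 ± 0.27) and BGLU22 rose by 2.30 ± 0.38, while BGLU20, with 4 genes between it and BGLU22 on chromosome 5, fell by 1.49 ± 0.27.

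Among regulators, NAC45 read 49.9, 20.2 and 26.5 in controls and 256, 358 and 168 with arsenate (log2 change 2.97 ± 0.31, adjusted p 0.000922). Of 7 NAC factors tested 1 rose and 1 fell. The latter was OsNAC7, whose call was lost for 4 of the Bala arrays left out singly. OsDREB2B, of the dehydration-responsive factors, rose by 1.1 ± 0.18, and the stress-associated zinc finger proteins OsSAP17 and OsSAP1 moved apart, reading 105.5, 70.7 and 38.3 in controls and 457, 860.2 and 248 with arsenate (log2 change 2.76 ± 0.44) and 922.5, 972 and 932 in controls and 250.1, 312 and 301 with arsenate (log2 change -1.71 ± 0.19), respectively. Of 45 CCCH zinc finger genes 3 rose and none fell. CCCH genes had 1 higher and 1 lower calls without experiment 3, and 1 and 0 with the Bala arrays alone. OsC3H10 read 1.1, 2.6 and 1.0 in controls and 153, 672 and 30.7 with arsenate (log2 change 5.39 ± 1.01). OsC3H10 did not pass without Bala arsenate 1 (adjusted p 0.0555). Calcium signalling had 2 higher and 2 lower of 72, both under the background share. Calcium genes had 3 higher and 4 lower calls without experiment 3, and 2 and 2 with the Bala arrays alone. The calmodulin-like CML15 read 30.1, 38.7 and 9.7 in controls and 668, 696 and 238 with arsenate (log2 change 4.27 ± 0.59, adjusted p 0.00311), and the kinases OsCIPK31 and OsCIPK01 fell by 1.92 ± 0.29 and 1.42 ± 0.25. Of 16 calcium-dependent protein kinases none passed. Of 52 protein phosphatases 2C, which switch off kinases, 7 rose and 5 fell. Phosphatase genes had 3 higher and 2 lower calls without experiment 3, and 2 and 2 with the Bala arrays alone. OsPP2C16 read 7.7, 14.1 and 8.9 in controls and 99.8, 70.2 and 87.2 with arsenate (log2 change 2.85 ± 0.36) and OsPP2C12 fell by 1.83 ± 0.30. OsPP2C69 read 20.1, 20.1 and 20.4 in controls and 8.6, 6.4 and 7.8 with arsenate (log2 change -1.21 ± 0.25). OsPP2C52 had a small rise (0.57 ± 0.15), reading 635.5, 662 and 499 in controls and 868, 959 and 833 with arsenate. OsPP2C69 did not pass without Bala arsenate 1, 2 or 3 or Bala control 1 or 2, each left out alone (adjusted p up to 0.0643). The call of OsPP2C52 was lost for 11 of the 12 arrays left out singly (adjusted p up to 0.122). The clock gene OsPCL1 read 1.5, 4.2 and 14.4 in controls and 223.5, 329.7 and 23.5 with arsenate (log2 change 4.11 ± 0.96), and experiment 3 showed the smallest rise. OsCCA1, of the morning loop, had a change of 0.02 ± 0.18 (adjusted p 0.956). OsPCL1 did not pass without Bala arsenate 1 or 2 or Bala control 1 or 2, each left out alone (adjusted p up to 0.114).

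Of 95 cell cycle and replication genes 5 rose, all kinesins, which are motors of the microtubules, and 3 fell, all D-type cyclins, which start the cycle. Both shares lay under the background. Cell cycle genes had 2 higher and 1 lower calls without experiment 3, and 0 and 1 with the Bala arrays alone. The list holds no P-type cyclins, of which CYCP3-1 fell by 1.31 ± 0.26, while CYCP2-1 and CYCP4-1 did not pass (changes of -0.41 and 0.21). CYCD5-3 read 151, 139 and 133 in controls and 41.6, 40.3 and 49.7 with arsenate (log2 change -1.64 ± 0.26, adjusted p 0.00558). KIN14B read 59.2, 69.2 and 115 in controls and 158.5, 146 and 192 with arsenate (log2 change 1.06 ± 0.20), and KIN14I, KIN12E, KIN14A and K23 rose by 0.79 to 1.27. CYCD4-2 and CYCD5-1 fell by 0.90 ± 0.23 and 0.67 ± 0.18. No replication gene passed among 27, with OsPCNA at 0.54 ± 0.20 (adjusted p 0.118). CYCP3-1 did not pass without Bala arsenate 1 (adjusted p 0.0649). KIN14B did not pass without Bala arsenate 1 or 2, each left out alone (adjusted p up to 0.0649). KIN14I did not pass without Bala arsenate 1, 2 or 3 or Bala control 1 or 3, each left out alone (adjusted p up to 0.11). KIN12E did not pass without Bala arsenate 1 or 2 or Bala control 1 or 2, each left out alone (adjusted p up to 0.116). KIN14A, K23, CYCD4-2 and CYCD5-1, with arrays left out singly, lost the call for 9, 11, 8 and 12 of the 12 arrays (adjusted p up to 0.15, 0.152, 0.113 and 0.162). Of 23 tubulins and actins 4 fell. These cytoskeletal genes had 1 higher and 4 lower calls without experiment 3, and 1 and 1 with the Bala arrays alone. OsTUB8 read 1589.7, 1251 and 1129 in controls and 598, 546 and 465 with arsenate (log2 change -1.29 ± 0.17) and pTUB22 fell by 1.06 ± 0.17. The actins AC7 and AC3 fell by 0.84 ± 0.19 and 0.62 ± 0.17, beside the higher actin 3' to 5' ratio of the arsenate arrays, whose part was not tested. AC7 did not pass without Bala arsenate 1, 2 or 3 or Bala control 1 or 2, each left out alone (adjusted p up to 0.0864). The call of AC3 was lost for 11 of the 12 arrays left out singly (adjusted p up to 0.147). Of 87 cell wall genes 2 rose and 2 fell, both under the background. Cell wall genes had 2 higher and 11 lower calls without experiment 3, and 0 and 0 with the Bala arrays alone. None of 24 ribosomal proteins, 16 proteasome subunits, 7 autophagy genes and 6 histones passed. RPS21 read 5099, 4928 and 4126 in controls and 5154, 5226 and 4852 with arsenate (adjusted p 0.684) and OsRPN7 1904, 1987 and 1612 in controls and 2492, 2403 and 2299 with arsenate (adjusted p 0.135). In simulated data of 28461 probe sets the same test found 20 of 100 changes of 1 log2 unit and 65 of 100 changes of 2 units, and missed the others. A far smaller share of probe sets changed there than was called in Bala, and the adjusted p depends on that share. These counts therefore do not give the share of real changes that the test found in Bala.

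Of 21 photosynthesis genes 3 fell and none rose (median -1.38). OsNYC1, of chlorophyll breakdown, read 83.3, 106 and 430.0 in controls and 27.9, 14.5 and 50.5 with arsenate (log2 change -2.42 ± 0.43), ISP, the Rieske protein, 180.1, 343 and 401 in controls and 28.9, 23.4 and 149 with arsenate (log2 change -2.58 ± 0.54), and OsGLK1, a regulator of chloroplast genes, 32.1, 27.4 and 106 in controls and 1.0, 1.2 and 24 with arsenate (log2 change -2.89 ± 0.57). CAB2R, a light-harvesting protein, read 729.9, 1313 and 2650.4 in controls and 164, 70 and 2252 with arsenate and did not pass (log2 change -2.19 ± 1.01, adjusted p 0.194). The summed signals of these genes were given with the arrays above, where Bala arsenate 3 lay within the range of the controls. Without experiment 3, 9 of the 21 fell and 1 rose. Whether shoot tissue was carried into some samples was not tested. ISP did not pass without Bala arsenate 1 or 2 or Bala control 2, each left out alone (adjusted p up to 0.0777). OsGLK1 did not pass without Bala arsenate 1 or 2 or Bala control 1, each left out alone (adjusted p up to 0.0683).

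The mean signal of 1 Bala group lay under 9.4 for CM-LOX1, KSL4, LAC19, OsC3H10, OsCOPT2, OsGLK1, OsHsp16.9B, OsIRT2, OsOPR6, OsP5CS2, OsPCL1, OsPP2C69, OsSUS3, OsSWEET1b, OsYUCCA1, OsZIP3, RAB16B, RAB16C, RAB21 and RAmy3D, and the sizes of these changes depend on the constant added. Outside the rule for named genes, AOS4, CLPB-C, CLPB-M, CM-LOX2, CYCP2-1, CYCP3-1, CYCP4-1, HSFA2C, HSFA3, HSP17.7, K23, LEA19, LOX1.1, LOX5, OsABA8ox1, OsAMT2;3, OsDjA6, OsHsp16.6, OsHsp16.9A, OsHsp17.9B, OsHsp18.8, OsMGT1, OsNAAT1, OsNAS3, OsNIN1, OsOPR4, OsOPR5, OsPP2C69, OsSAPK3, OsSAPK4, OsTPP3, OsYSL13, OsYUCCA1, OsZIP3, OsZIP4, OsZIP7 and RAB16C were added after their values were seen.

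Whether the Bala response differed from that of Azucena was tested only by the difference of the responses, and the shared calls below are counts without a test. Of 15638 genes 3 (0.0192%) had a higher and 8 (0.0512%) a lower change in Bala than in Azucena, together 0.0703%. Counted over probe sets, 12 (0.0422%) were higher and 14 (0.0492%) lower, 26 (0.0914%) in all. Azucena had more calls on its own, 22.7% of genes. Of the genes called in Bala 70.6% were also called in Azucena, and of those called in Azucena 39.4% in Bala. Of these 1401 genes 1391 changed the same way. OsSWEET1b read 0.5, 1.0 and 0.5 in controls and 110.1, 104.5 and 118 with arsenate in Bala, and 0.7, 0.9 and 0.3 in controls and 0.4, 1.4 and 0.7 with arsenate in Azucena. Its change was higher in Bala by 5.26 ± 0.25 (adjusted p 0.000193). OsSWEET12 ran the other way, reading 1.6, 2.0 and 2.9 in controls and 7.3, 7.1 and 6.1 with arsenate in Bala and 7.0, 1.3 and 0.8 in controls and 983, 647 and 419 with arsenate in Azucena (difference -6.10 ± 0.52, adjusted p 0.0083). CYP99A2 fell in Bala and read 7.4, 1.9 and 4.3 in controls and 33.5, 81.8 and 83.8 with arsenate in Azucena (difference -5.98 ± 0.81, adjusted p 0.0485). OsKO4 missed the threshold of the difference (-5.88 ± 0.83, adjusted p 0.0512), as did OsCPS4 (-6.24 ± 1.14, adjusted p 0.091). OsIRT2, an iron transporter, rose in Bala by 5.49 ± 0.49 and had a change of 0.83 ± 0.49 in Azucena, with an adjusted p of 0.0594 for the difference. In Bala CYP99A2 and OsKO4 each lost the call without some single arrays, as given with the phytoalexins. SDH7 had -0.12 ± 0.18 in Azucena (adjusted p 0.0651 for the difference), and GRXS3 4.35 ± 0.22 (adjusted p 0.0512). Most of the genes called in Bala had no such difference by this test, which does not show that they respond alike. With other settings between 0 and 138 probe sets differed, 0 of them without any 1 experiment and 97 without Bala control 3, and 2967 of the main test had an unadjusted p under 0.05. In OsSWEET12 every Bala array and the Azucena controls, in CYP99A2 and OsKO4 the Azucena controls, and in OsSWEET1b all arrays but those of Bala with arsenate lay under 9.4, so that the sizes of these differences depend on the constant added. On chromosome 6, where the cited tolerance gene lies, 6.67% of 1229 tested genes rose and 5.86% fell in Bala, against 7.01% and 5.70% elsewhere.

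**Figure D5:**
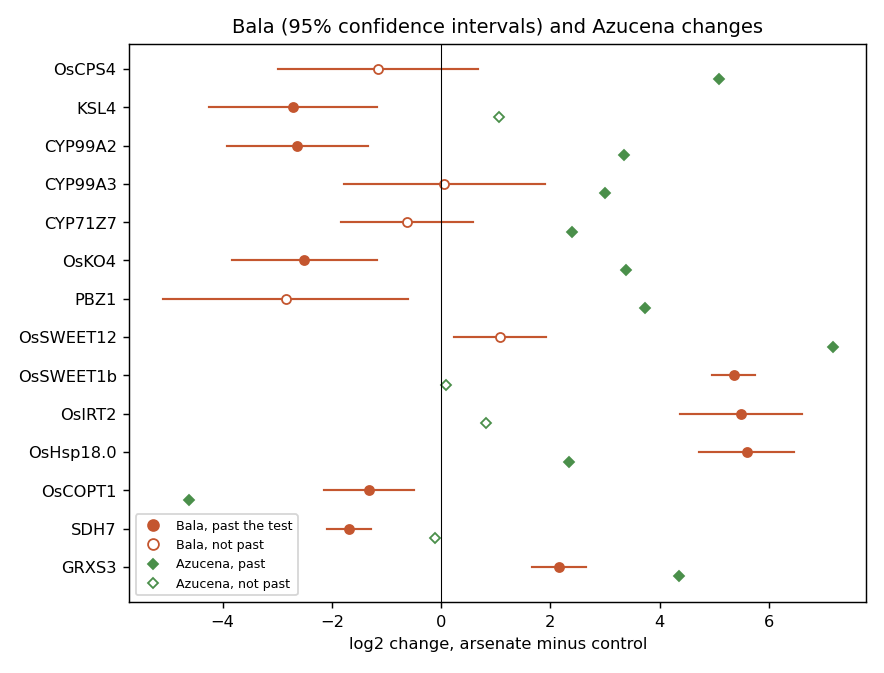
Log2 change, arsenate minus control, in Bala (orange circles with 95% confidence intervals) and Azucena (green diamonds) for 14 genes picked after their values were seen. Filled symbols passed the test within the variety. Azucena intervals are not drawn. The 6 phytoalexin genes at the top lie lower in Bala than in Azucena, of which CYP99A2 passed the test of the difference. OsSWEET12, also lower in Bala, and OsSWEET1b, which is higher in Bala, passed it too.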

How the data were processed

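Root RNA of 12 rice samples was hybridised to 1-colour arrays. The authors deposited a probe set intensity on a linear scale, made with MAS5 per the submitters' processing notes, without a version. The deposited intensities have the same trimmed mean on every array. Of 57258 rice probe sets (123 controls left out), 28461 had a mean intensity above 9.4, the pooled median, and were tested. The values log2(intensity + 2.1), the constant being the pooled 25th percentile, of all 12 arrays were fitted in limma 3.58.1 (R 4.3.3). The model held a mean for each of 4 groups, blocked by experiment. The block rests on the series design, in which the conditions of a replicate were harvested together. Deviations of same-numbered Bala arrays from their group means correlated at 0.13, 0.04 and 0.29, those of other-numbered arrays at -0.32 to 0.25. P-values were adjusted by Benjamini-Hochberg over all probe sets tested, with a threshold of 0.05. A gene was read from its probe set with the highest mean, and names came from the platform annotation and RefSeq, with 22436 probe sets having 1 gene, 95 several and 34727 none. Genes were named by a rule of largest, smallest, brightest and most significant changes, from each list up to 6 by adjusted p and up to 3 that did not pass by signal. Members, lists and rules were chosen with earlier results of these data known. The number of arrays limits the precision. On simulated data of 28461 probe sets the Bala test found 20 of 100 changes of 1 log2 unit and 65 of 100 of 2 units, with 4 false calls. A far smaller share of probe sets changed there than was called in Bala, so these counts do not give the sensitivity in the real data. Alternatives varied the constant, filter, scaling, variance model, block, arrays and experiments.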

Additional observations from a re-analysis of the deposited data

Results flagged for a closer look

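The response of 11 genes differed between the varieties by the test of the difference. OsSWEET12 (-6.098), CYP99A2 (-5.98), LOC4334549 (-4.974), LOC4343962 (-4.303), LOC4339856 (-3.801), LOC4326969 (-3.556), LOC4326000 (-3.365) and LOC4342259 (-2.741) had a lower log2 change in Bala than in Azucena. LOC9267438 (2.85), LOC4344909 (4.452) and OsSWEET1b (5.26) had a higher one. In OsSWEET12, CYP99A2 and OsSWEET1b at least 1 group lay under 9.4, so that these sizes depend on the constant added.

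Control probe sets with the prefix Mgr in the array's own naming, which no comparison uses, carried signal in some arsenate arrays. The ef1a 3' probe set read 57.9, 55.2 and 0.5 in the Bala arsenate arrays (mean 37.87) and 0.8, 0.6 and 0.6 in the Bala controls. In Azucena it read 9.6, 14.5 and 0.5 with arsenate. The actin 3' probe set read 34.0, 30.1 and 1.0 with arsenate (mean 21.7) and 7.7, 15 and 2.8 in controls in Bala. In Azucena the actin 3' probe set read 5.6, 6.7 and 3.8 with arsenate and 3.5, 8 and 0.3 in controls. In both probe sets Bala arsenate 3 stood apart from the other Bala arsenate arrays. For ef1a the arsenate array of experiment 3 read 0.5 in both varieties. What the probe sets detected was not tested.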

How the results depend on the processing

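The block is the experiment shared by same-numbered arrays. With no replicate block 3106 probe sets were called in Bala in place of 3379, and 58 in place of 26 in the difference (29 higher, 29 lower). Without the filter 1602 were called in Bala (857 higher, 745 lower) and 5 in the difference (2 and 3). With the 6 Bala arrays alone 1553 were called with the block (841 and 712) and 1478 without it (778 and 700). Leaving out 1 experiment gave 429 to 2833 calls (217 to 1408 higher, 212 to 1425 lower), and leaving out 1 array 1427 to 2735 (687 to 1317 higher, 740 to 1438 lower). For the difference, 1 experiment left out gave 0 calls in either direction and 1 array left out 5 to 97 (2 to 56 higher, 3 to 62 lower). The constant at the 5th percentile gave 17 in the difference (7 lower) and at the 50th 138 (79 and 59). The 70th percentile filter gave 56 (26 and 30), centring 71 (20 and 51), a variance trend 64 (37 and 27) and a robust trend 77 (44 and 33). In Bala these 6 settings and quantile normalization gave 2990 to 4201 calls. Of 183 named genes called, 89 kept the call without any single array, 156 lost it without 1 of the experiments and none turned in sign. Without the filter 79 lost it and with the Bala arrays alone 88. Of 102 counts of the gene lists, those that moved by over 1.5 times numbered 56, 63 and 42 without experiment 1, 2 and 3, 43 and 41 with the Bala arrays alone with and without the block, 40 without the filter and 8 to 24 under the other settings of constant, filter, scaling, variance and block. The causes were not tested.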
